A study of Mus musculus with 7 samples.

Results

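The genes examined here are 10 nuclear factors of the AP-1 and immediate early response, namely Fos, Fosb, Jun, Junb, Jund, Batf, Egr1, Egr3, Nr4a1 and Ier2. They were taken by name from a table of 48795 mouse genes and matched through their Ensembl gene IDs. A gene entered the test if it reached 1 TPM (a transcript abundance corrected for gene length and library total) in at least 3 libraries. That left 11573 genes, and the 10 named factors were among them. Nr4a1 passed only because of its values in memory B cells (MBCs), so its presence among the tested genes is itself tied to the difference described for it.

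AP-1 is a dimer of basic leucine zipper proteins. Members of the Jun family can pair with each other or with members of the Fos family, whereas Fos proteins need a Jun partner to bind DNA. Many of these genes are immediate early genes: antigen receptor, cytokine or stress signals acting through MAP kinases, SRF and CREB switch on their transcription from factors already present in the cell, and their mRNAs are short-lived. In B cells, BATF and JUN proteins also bind composite sites with IRF4 or IRF8, while BACH2 competes for related sites and restrains plasma cell (PC) differentiation.

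The libraries are bulk RNA sequencing of spleen cells from female C57BL/6 mice of wild type genotype, 8 to 12 weeks old, taken 10 days after an intravenous dose of sheep red blood cells, an antigen that engages T cell help. Sorted MBCs (3 libraries) were B220+, CD138neg, IgDneg, CD38+ and CD273+. Sorted PCs (4 libraries) were B220lo, CD138+ and IgD-, and both populations were sorted after magnetic enrichment of B cells with CD43 beads. Cells were kept on ice with antibodies and red cells were lysed at room temperature before the sort. A Nugen kit was used to make cDNA, and the sequencer was an Illumina HiSeq. No label says that replicates are separate animals, so p-values measure only the spread between these libraries, which may be technical. The titles hold codes, 3 of which occur in both groups. No label says what the codes mark, and the main fit does not pair libraries by them.

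Values are given as scaled TPM, the deposited TPM divided by a factor for each library, because immunoglobulin transcripts fill much of a PC library and lower every other gene in it. Between 11527 and 18061 genes were listed above 0 per library. At 1 TPM a transcript of 1 kb stood for an estimated 6.24 to 11.6 reads in MBCs and 9.38 to 16.4 reads in PCs, and 3 such reads corresponded to between 0.127 and 0.394 scaled TPM. The library labelled MBC replicate 3 stood apart. Its Pearson's r with the PC libraries across tested genes (0.70 to 0.777) was higher than with the other MBC libraries (0.681 and 0.687). Those other MBC libraries were no closer to each other, at 0.675. Cd38 and Pdcd1lg2, which encode the surface proteins CD38 and CD273 used to sort MBCs, were 6.77 and 2.59 scaled TPM there, against at least 130 and 24.4 in the other MBC libraries. Summed germinal center B cell markers were 625 scaled TPM in MBC replicate 3 against 232 and 238 in the others, and 10 proliferation genes summed to 1102 against 203 and 221. It was also the single MBC library with the less frequent title prefix, which PC replicate 4 shares, and the labels do not say what the prefix marks. Results are therefore given with and without that library where it matters.

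Fos, Fosb, Jun and Jund rose in PCs. Their PC libraries all lay above their MBC libraries, and the fitted log2 fold changes ran from 1.83 to 4.01. Ier2 and Egr1 also had no overlap, with higher values in PCs, and Nr4a1 had no overlap with lower values in PCs, but these 3 did not pass the test. Junb, Batf and Egr3 overlapped between the groups. Calls needed an adjusted p under 0.05 (limma, Benjamini-Hochberg over all tested genes) together with a log2 fold change of 1 or more in either direction. Of the 10 factors, 4 were called higher in PCs and 0 lower, where 6.41% of all tested genes were called higher and 2.14% lower (8.55% either way). At an unadjusted p under 0.05 in limma, 7 of the 10 factors passed, against 24.2% of tested genes. Nr4a1, tested only because of its values in MBCs, was among these 7. By libraries alone, on scaled TPM, 6 lay higher in PCs without overlap (13.0% of tested genes), 1, again Nr4a1, lay lower (8.68%) and 3 overlapped. That separation depended on the scaling for Fosb, Ier2 and Egr1, which overlapped as deposited. Their highest MBC and lowest PC values were then 18.9 and 13.8 TPM for Fosb, 5.85 and 3.84 for Ier2, and 54.8 and 24.9 for Egr1. The median log2 fold change of the 10 factors was 1.41, and that of all tested genes was 0.14. Without MBC replicate 3, 4 of the 9 factors still tested were called higher and 0 lower, where 15.1% of genes were then called higher and 8.2% lower. With the libraries of the more frequent title prefix alone, 3 of 9 were called higher, Fos, Jun and Jund. Without PC replicate 1, 2 or 3, 1 of 10 was called higher, and without PC replicate 4, 2 were. Without MBC replicate 1 or 2, 3 of 9 were. In these runs 456 to 625 of 11009 to 11304 tested genes were called higher. With TPM as deposited, 1 factor was called higher and 1 lower, where 472 and 3018 of 11573 tested genes were. In bulk libraries, fewer cells that express a gene and less of its RNA per cell cannot be told apart.

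**Figure D1:**
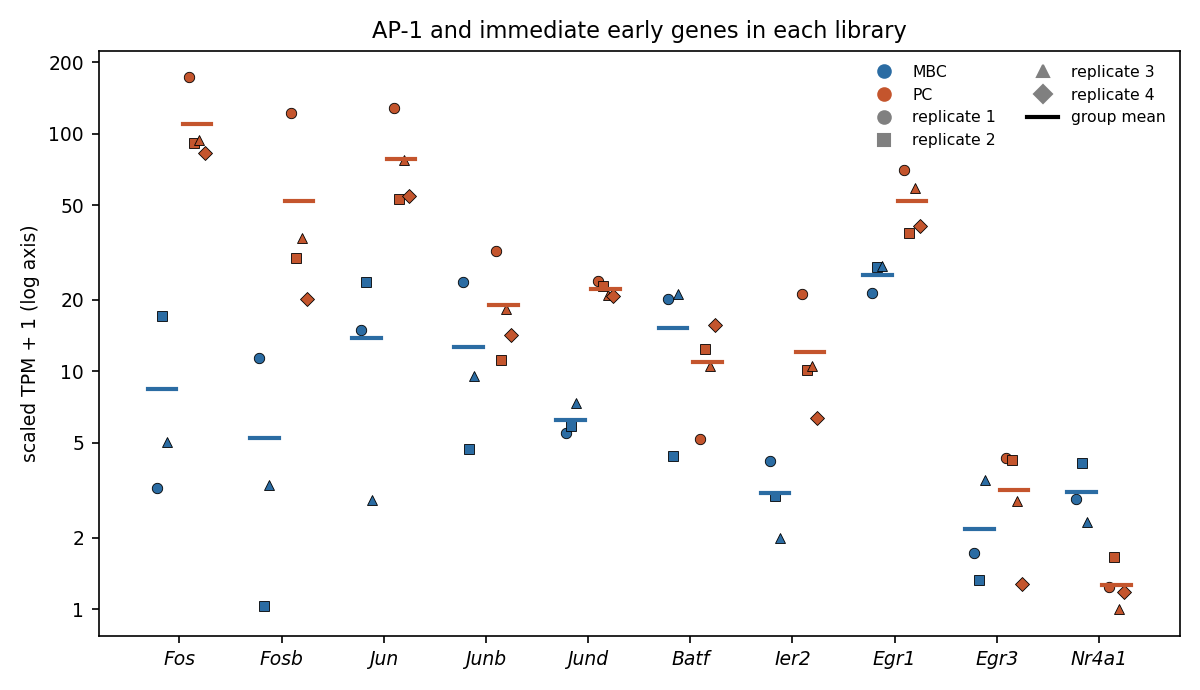
Level of each factor in each library, as scaled TPM + 1 on a log axis; blue marks are MBC libraries, red marks PC libraries, the shape gives the replicate number and the bar the group mean. Fos, Fosb, Jun, Jund, Ier2 and Egr1 show every PC library above every MBC library, Nr4a1 shows the opposite order, and Junb, Batf and Egr3 overlap.

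Markers of other cells differed between the groups as well. Of 9 T cell markers, 4 were tested and 2 were called higher in PCs, Cd3e and Trac, and the list summed to 0 to 25.4 scaled TPM in MBCs and 17.4 to 64.8 in PCs. Myeloid markers summed to 6.10 to 50.7 in MBCs and 67.6 to 126 in PCs, a sum carried in PCs by Fcer1g (36.6 to 95.8) and Cd68 (17.0 to 25.2). Of 10 myeloid markers 5 were tested, with a median log2 fold change of -0.29: Fcer1g was called higher, a call lost without any single library other than MBC replicate 1, and Lyz2, Csf1r and Itgam had fitted values of -0.29, -0.96 and -0.37. The neutrophil genes S100a9 and Ly6g were at 0 in every library. NK cell markers summed to 0 to 0.107 in MBCs and 4.56 to 8.07 in PCs, with 1 of 5 tested and none called by limma (1 at an unadjusted p under 0.05). Erythroid genes summed to 4524 scaled TPM in MBC replicate 2 and to at most 122 in any other library, and none of 5 tested was called (none at an unadjusted p under 0.05). Platelet genes summed to at most 1.40 in any library and none could be tested. Stromal and endothelial genes summed to 13.5 to 183 in MBCs and 5.28 to 8.81 in PCs, where only Pecam1, also found on lymphocytes, was tested and it was lower in PCs. The part of these cells in the values of the AP-1 and immediate early factors was not tested. For the sorted lineages themselves, 5 of 5 PC markers were called higher in PCs, 3 of 5 B cell markers lower, 1 of 6 germinal center markers (Mybl1) lower, and 0 of 10 proliferation genes either way (0 at an unadjusted p under 0.05; 6 higher without MBC replicate 3).

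The promoter sequences of Fos, Fosb and Jun, the factors with the largest differences, are shown beside that of Nr4a1, which lay in the opposite direction. Each is the 250 bases before the RefSeq transcription start on GRCm38.p6, read 5' to 3' on the strand of the gene. Capitals mark TGACG on either strand (read as CGTCA when it lies on the other), the core shared by sites of the CREB and ATF family, or TGANNTCA, the spacing of sites bound by Jun with ATF partners. TGACGTCA, the full palindrome, would be counted under both. The windows are chr12:85473640-85473889 (+) for Fos, chr7:19310046-19310295 (-) for Fosb, chr4:95052223-95052472 (-) for Jun and chr15:101266596-101266845 (+) for Nr4a1.
Fos: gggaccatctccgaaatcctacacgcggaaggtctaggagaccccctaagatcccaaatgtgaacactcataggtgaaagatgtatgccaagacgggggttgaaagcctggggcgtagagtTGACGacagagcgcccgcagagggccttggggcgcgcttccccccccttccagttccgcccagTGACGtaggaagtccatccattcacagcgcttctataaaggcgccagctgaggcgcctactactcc
Fosb: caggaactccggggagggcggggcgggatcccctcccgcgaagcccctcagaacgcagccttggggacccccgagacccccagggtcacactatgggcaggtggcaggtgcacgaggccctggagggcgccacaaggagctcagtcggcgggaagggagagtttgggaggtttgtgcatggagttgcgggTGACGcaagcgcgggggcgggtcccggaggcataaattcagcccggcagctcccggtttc
Jun: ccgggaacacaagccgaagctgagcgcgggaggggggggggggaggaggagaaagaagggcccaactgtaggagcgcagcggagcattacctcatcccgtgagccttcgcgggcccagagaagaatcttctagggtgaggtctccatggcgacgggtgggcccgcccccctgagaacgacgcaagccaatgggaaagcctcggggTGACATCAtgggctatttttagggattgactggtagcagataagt
Nr4a1: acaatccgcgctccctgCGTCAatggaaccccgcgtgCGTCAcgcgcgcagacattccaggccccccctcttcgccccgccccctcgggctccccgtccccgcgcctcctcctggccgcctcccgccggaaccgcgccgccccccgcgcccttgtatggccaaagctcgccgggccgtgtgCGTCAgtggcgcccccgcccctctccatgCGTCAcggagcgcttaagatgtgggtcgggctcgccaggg

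TGACG occurred 2 times in the Fos window, with first bases 129 and 66 bases before the start. It occurred once in Fosb, 60 bases before the start, and 4 times in Nr4a1, at 233, 213, 69 and 40 bases. Jun held none, but had TGANNTCA 45 bases before its start. Among the factors, 7 had a RefSeq window: those printed and Junb and Batf, with 1 TGACG each, and Jund, with 1 TGANNTCA and no TGACG. Egr1, Egr3 and Ier2 had no window in the table used. Over 32851 windows of the same length, 17.8% held TGACG, 11.9% held TGANNTCA, 1.55% held TGACGTCA and 6.75% held TGANTCA, the consensus spacing of AP-1 itself. None of the 7 windows held TGACGTCA, TGANTCA or a CArG box, the site of SRF, which occurred in 1.47% of all windows. Sequence more than 250 bases before a start was not searched, so sites farther upstream would be missed. TATAAA lay 33 bases before the Fos start and in no other of the 7 windows, against 12.4% of all windows. GCGNGGGCG, the core of EGR sites, was matched once each in Fosb and Nr4a1, against 4.7% of all windows. The Nr4a1 window belongs to a start inside the span annotated by GENCODE, downstream of the first start, and the Jund window ends upstream of the GENCODE start of Jund without adjoining it. Such matches describe letters and not binding.

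Fos, the founding member of its family and a transcription factor only as a dimer, had the largest difference. Its gene (ENSMUSG00000021250) lies at chr12:85473890-85477273 on the + strand of GRCm38. In MBC replicates 1 to 3, in that order here and below, Fos was 2.22, 16.1 and 4.04 scaled TPM, and the 4 PC libraries had 172, 90.8, 93.2 and 81.9. Every PC library was thus far above the highest MBC library, and the MBC libraries themselves spread widely. The MBC mean was 7.46 ± 7.55 (SD, n = 3) and the PC mean 109 ± 41.9 (SD, n = 4), a 14.7-fold ratio. The log2 fold change on log2(scaled TPM + 1) was 4.01 (SE 0.57, 95% interval 2.73 to 5.30; limma, adjusted p = 0.0022). It was called in 18 of 18 alternative settings, with log2 fold changes between 2.83 and 4.67 and adjusted p between 0.00037 and 0.0203. The lowest Fos value rested on an estimated 47.9 reads.

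Fosb encodes a second Fos protein that also needs a Jun partner. Located at chr7:19302696-19310051 on the - strand (ENSMUSG00000003545), Fosb was 10.4, 0.0270 and 2.32 scaled TPM in the MBC libraries and 121, 29.0, 35.4 and 19.3 in the PC libraries. MBC replicate 2, the MBC library with the most Fos, had almost no Fosb, an estimated 0.987 reads, whereas MBC replicate 1 had the most Fosb and the least Fos. PC replicate 1 was far above the other PC libraries, and the groups did not overlap. The log2 fold change was 3.58 (SE 0.86, 95% interval 1.66 to 5.50; limma, adjusted p = 0.0313). This call rested on most of the libraries: it held in 9 of 18 alternatives and was lost without MBC replicate 2 (log2 fold change 2.68, adjusted p = 0.0834), PC replicate 1 (3.11, 0.0859), PC replicate 2 (3.78, 0.0692) or PC replicate 3 (3.66, 0.0812). It depended on the scaling too, and was lost with TPM as deposited (2.56, adjusted p = 0.0728).

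The remaining Fos family genes were scarce. Fosl2, which encodes a Fos protein with a slower response, was 1.64, 0 and 0.331 scaled TPM in the MBC libraries and 0, 0.149, 0.0861 and 0 in the PC libraries. It reached 1 TPM in too few libraries to be tested. Fosl1 was listed above 0 in MBC replicate 3 only, at 0.0292 scaled TPM.

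Jun, the partner of Fos in the classical AP-1 dimer, was the most abundant Jun family gene in PCs. Jun (ENSMUSG00000052684, chr4:95049034-95052222, - strand) was 13.9, 22.7 and 1.88 scaled TPM in the MBC libraries and 128, 52.3, 76.6 and 53.6 in the PC libraries. Low Jun among MBCs came from replicate 3, and the lowest PC library was still above the highest MBC library. MBCs averaged 12.8 ± 10.5 (SD, n = 3) and PCs 77.5 ± 35.2 (SD, n = 4), and the log2 fold change was 2.87 (SE 0.69, 95% interval 1.33 to 4.41; limma, adjusted p = 0.0317). Without MBC replicate 3 the change was smaller and better resolved, at 1.96 (adjusted p = 0.0186). The call was lost without MBC replicate 1 or any single PC library, at adjusted p between 0.0555 and 0.0926, and held in 9 of 18 alternatives. It was lost with TPM as deposited as well (1.67, adjusted p = 0.0906). Junos, an antisense gene that overlaps Jun, was at 0 TPM in every MBC library and between 0.7 and 2.47 TPM as deposited in PCs, and since no source gives the strandedness of the libraries, their reads cannot be told apart.

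Jund, a Jun family gene usually expressed in resting cells and less inducible than Jun, varied less between PC libraries, relative to its mean, than any other of the 10. Jund (ENSMUSG00000071076, chr8:70698949-70700616, + strand) was 4.52, 4.90 and 6.37 scaled TPM in the MBC libraries and 23.0, 21.8, 20.1 and 19.8 in the PC libraries. Neither group held a library that stood out, and the gap between them was wide. The means of 5.26 ± 0.978 (SD, n = 3) and 21.2 ± 1.5 (SD, n = 4) differed 4.02-fold, and the log2 fold change was 1.83 (SE 0.39, 95% interval 0.96 to 2.70; limma, adjusted p = 0.018). That call held without any 1 MBC library and was lost without any 1 PC library, at adjusted p between 0.053 and 0.0899, while the log2 fold change stayed between 1.71 and 1.93 without any 1 library. The call was lost with a replicate block by title code (1.82, adjusted p = 0.136) or by replicate number (1.86, 0.17), though neither was shown to pair the libraries. It also depended on the scaling, since the fold change was 0.64 with TPM as deposited (adjusted p = 0.284). Gm11175, an antisense gene that overlaps Jund, was 1.97 to 12.5 TPM in MBCs and 3.85 to 18.2 TPM in PCs as deposited.

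Junb, which can restrain Jun activity and takes part in lymphocyte differentiation, did not follow the pattern of Jun and Jund. Junb (ENSMUSG00000052837, chr8:84974484-84978718, - strand) was 22.8, 3.71 and 8.60 scaled TPM in the MBC libraries and 31.2, 10.2, 17.4 and 13.3 in the PC libraries. MBC replicate 1 exceeded 3 of the 4 PC libraries. Its log2 fold change was 0.77 (SE 0.62, 95% interval -0.61 to 2.16; limma, adjusted p = 0.486), and it was -0.44 with TPM as deposited. Whether the change of Junb differed from that of Jun or Jund was not tested. Prdx2 overlaps Junb on the opposite strand and was 4.37 to 57.1 TPM in MBCs and 17.3 to 43.1 TPM in PCs as deposited.

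**Figure D2:**
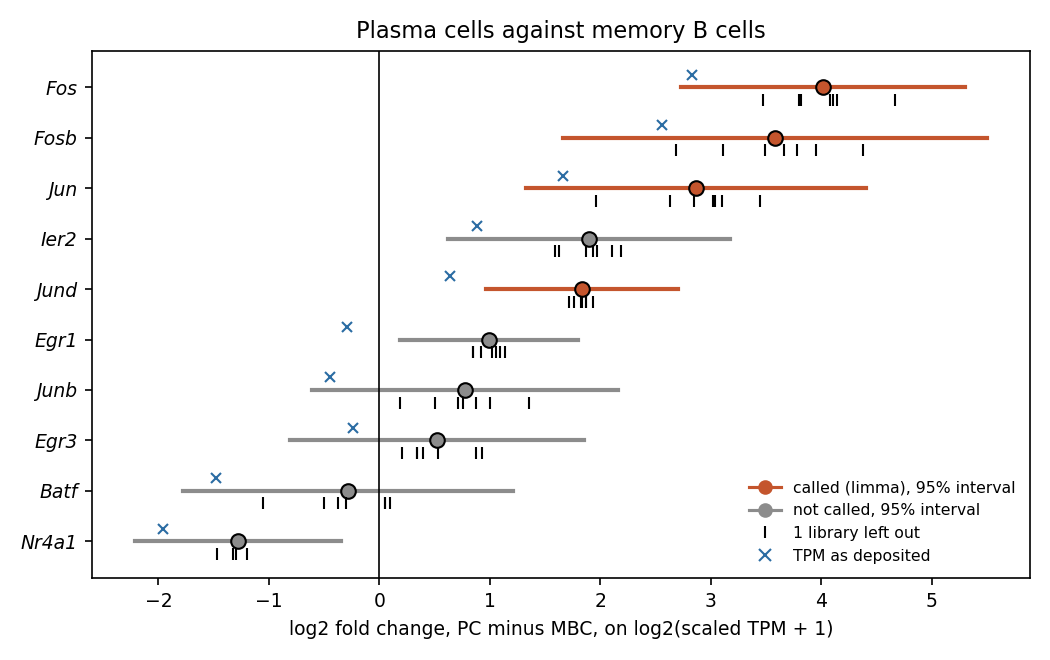
Log2 fold change of each factor, PC minus MBC, with its 95% interval from limma (red, called; gray, not called); ticks under each point are fits that left out 1 library, and crosses are the fit to TPM as deposited. Fos lies at 4.01 with every tick and cross to the right of 2, whereas the crosses of Junb, Egr1 and Egr3 lie on the other side of 0 from their points.

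The makeup of each family was compared within libraries, as shares of summed TPM, which are free of the scaling between libraries and carry no test. In PCs Jun was the largest part of the Jun family in every library. Jun made up 70.2%, 62.0%, 67.2% and 61.8% of it in PC replicates 1 to 4 (mean 65.3% ± 4.09, SD, n = 4), Junb between 12.1% and 17.2% and Jund between 12.6% and 25.9%. MBC libraries had no common makeup. Jun made up 33.7%, 72.5% and 11.2% in MBC replicates 1 to 3, and Junb 55.3%, 11.8% and 51%. MBC replicate 2 therefore resembled PCs in its Jun share, while Junb was the largest part in MBC replicates 1 and 3. In the Fos family, the Fos share was 58.6% to 81.0% in PCs and 15.6%, 99.8% and 60.1% in MBC replicates 1 to 3. The Fosb share was 41.4%, 24.2%, 27.5% and 19.0% in PC replicates 1 to 4. It was 72.9%, 0.167% and 34.5% in MBC replicates 1 to 3.

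Fos family transcripts exceeded Jun family transcripts in PCs and not in MBCs. Summed Fos and Fosb divided by summed Jun, Junb and Jund gave 0.306, 0.515 and 0.378 for the MBC libraries, and 1.61, 1.42, 1.13 and 1.17 for the PC libraries. The ratios of the groups did not overlap, and no test was made on them. Jun family genes summed to 16.9 to 41.2 scaled TPM in MBCs and 84.3 to 182 in PCs, and the Fos family to 6.72 to 16.1 in MBCs and 101 to 293 in PCs.

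**Figure D3:**
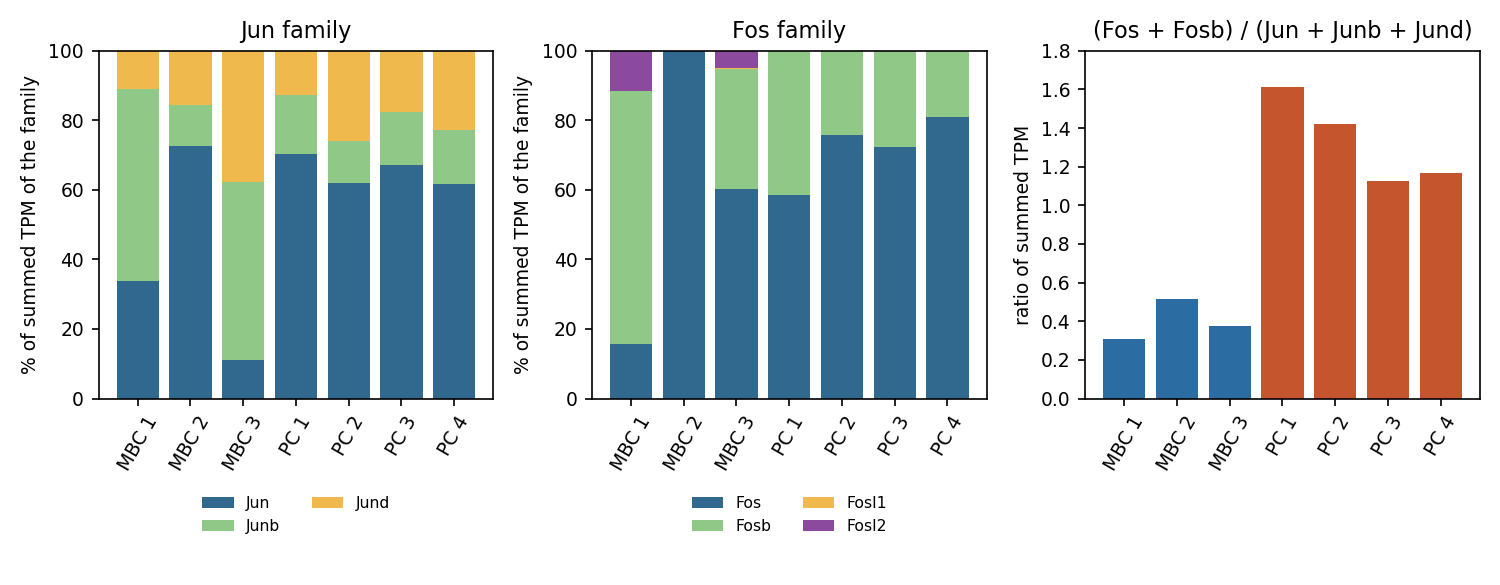
Share of each gene in the summed TPM of the Jun family (left) and the Fos family (middle), and the ratio of Fos plus Fosb to Jun, Junb and Jund (right), in each library; bars are single libraries and both scales start at 0. Shares vary less among the 4 PC libraries than among the MBC libraries. Ratios are above 1 in PCs and at most 0.515 in MBCs.

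Batf, a small leucine zipper protein without a transactivation domain of its own, pairs with Jun proteins and recruits IRF4 or IRF8, and B cells need it for class switching. Batf (ENSMUSG00000034266, chr12:85686669-85709087, + strand) was 19.2, 3.40 and 20.3 scaled TPM in the MBC libraries and 4.18, 11.4, 9.55 and 14.7 in the PC libraries. High and low libraries occurred in both groups. PC replicate 1, the highest PC library for most of the factors on scaled TPM, was the lowest for Batf. The log2 fold change was -0.29 (SE 0.67, 95% interval -1.78 to 1.21; limma, adjusted p = 0.832), and it changed sign, to between 0.05 and 0.10, without MBC replicate 1, MBC replicate 3 or PC replicate 1.

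Egr1, a zinc finger factor induced by ERK signaling through SRF sites, had the highest mean of the 10 in MBCs, although Junb exceeded it in MBC replicate 1. Egr1 (ENSMUSG00000038418, chromosome 18) was 20.4, 26.4 and 26.7 scaled TPM in the MBC libraries and 69.4, 37.1, 58.0 and 39.8 in the PC libraries. All PC libraries were above all MBC libraries, but by less than for Fos or Jun. MBCs averaged 24.5 ± 3.58 (SD, n = 3) and PCs 51.1 ± 15.4 (SD, n = 4), and the log2 fold change was 0.99 (SE 0.36, 95% interval 0.18 to 1.8; limma, adjusted p = 0.129). It was not called in any of 18 alternatives, and it was -0.29 with TPM as deposited, a scale on which the median of all tested genes was -0.91.

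Egr3 and Egr2 belong to the same family and act downstream of NFAT and antigen receptor signals. Egr3 (ENSMUSG00000033730, chr14:70077203-70082614, + strand) was low everywhere, at 0.730, 0.324 and 2.49 scaled TPM in the MBC libraries and 3.32, 3.26, 1.86 and 0.279 in the PC libraries. The lowest values rested on an estimated 12.4 reads in MBCs and 12.2 in PCs, and the groups overlapped (log2 fold change 0.52, SE 0.59, 95% interval -0.81 to 1.85; limma, adjusted p = 0.643). Its sign turned with TPM as deposited (-0.24). Egr2, measured for comparison, was 7.17, 0 and 24.3 scaled TPM in the MBC libraries and 18.3, 12.4, 8.03 and 13.9 in the PC libraries. The highest Egr2 value was in MBC replicate 3, and MBC replicate 2 had none. The log2 fold change of Egr2 was 1.21 (SE 0.94; limma, adjusted p = 0.475).

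Nr4a1, an orphan nuclear receptor that reports recent antigen receptor signaling in B cells, was the single factor with every PC library below every MBC library. Nr4a1 (ENSMUSG00000023034, chr15:101254269-101274795, + strand) was 1.90, 3.13 and 1.32 scaled TPM in the MBC libraries and 0.236, 0.654, 0 and 0.181 in the PC libraries. PC values stood on an estimated 5.17, 15.5, 0 and 5 reads, and the lowest MBC value on 50.6 reads. The log2 fold change was -1.28 (SE 0.42, 95% interval -2.21 to -0.35; limma, adjusted p = 0.0968), which on this scale understates the change of a gene so low. It passed the threshold with TPM as deposited (-1.96, limma, adjusted p = 0.011), which was 1 of the 13 alternatives in which it could be tested. It passed in none of the rest. On the deposited scale the median of all tested genes was -0.91, and 3018 of 11573 were called lower. Leaving out any MBC library took Nr4a1 under the filter.

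Ier2, a short nuclear protein of the immediate early response whose gene has a single exon, was low in both groups and higher in PCs without overlap. Ier2 (ENSMUSG00000053560, chr8:84661331-84662852, - strand) was 3.21, 2.00 and 0.999 scaled TPM in the MBC libraries and 20.1, 9.14, 9.51 and 5.35 in the PC libraries. The PC libraries spread widely around a mean of 11 ± 6.34 (SD, n = 4). The log2 fold change was 1.90 (SE 0.57, 95% interval 0.62 to 3.18; limma, adjusted p = 0.0752), larger than that of Jund but less precise. Ier2 was not called, nor was it in any of 18 alternatives.

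Levels per length can be ordered within a group, since TPM corrects for length. In MBCs Egr1 had the highest mean, 24.5 scaled TPM, above the range of Batf, which followed, but its range overlapped those of Jun and Junb. From Batf (14.3) through Jun, Junb, Fos, Jund, Fosb, Nr4a1 and Ier2 to Egr3 (1.2), each gene overlapped the next in range. In PCs the order began with Fos (109), Jun (77.5), Fosb (51.2) and Egr1 (51.1), each overlapping the next. Egr1 did not overlap Jund (21.2), which followed, though Fosb, with its wide range, did. Junb (18.0), Ier2 (11) and Batf (9.95) came next, and Batf did not overlap Egr3 (2.18), which stood before Nr4a1 (0.268). Fos moved from the fifth place to the first and Fosb from the seventh to the third, whereas Batf moved from the second to the eighth.

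On scaled TPM, PC replicate 1 was the highest PC library for 8 of the 10 factors, those other than Batf and Nr4a1. Of all tested genes, 32.0% were highest in it. The scaled Egr3 values were close, 3.32 and 3.26 in PC replicates 1 and 2. As deposited, Egr3 was highest in PC replicate 2 (2.19 TPM, with 2.11 in PC replicate 1). Jund and Egr1 were then highest in PC replicate 3 (16.3 and 47.1, with 14.6 and 44.1 in PC replicate 1). The 10 factors summed to 572 scaled TPM in PC replicate 1 and to 266, 321 and 248 in PC replicates 2 to 4, and to 99.2, 82.8 and 75.0 in the MBC libraries. PC libraries without replicate 1 thus still summed to more than any MBC library. Fos was called without PC replicate 1 (3.81, adjusted p = 0.0106), and the other factors were not. MBC libraries had no such common order: the highest was replicate 1 for 3 factors, replicate 2 for 3 and replicate 3 for 4, where 32.5%, 32.4% and 35.1% of all tested genes were highest in them.

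For each factor, the genes outside the 10 with the most similar profile over the 7 libraries were found by the root mean square distance between mean-centered log2(scaled TPM + 1) values, a description with no test. Jund had the closest neighbor, Gfi1, a zinc finger repressor, at a distance of 0.0559, against a root mean square of 0.917 for the Jund profile itself, followed by Tfg (0.125). Fos was nearest to Iglc3, an immunoglobulin light chain constant region gene whose reads may be shared with its near copies, at 0.391, and then to Rilpl2 (0.488), where the Fos profile itself measured 2.12. Fosb was nearest to Ern1, which encodes the unfolded protein response sensor IRE1, at 0.463, followed by Dhrs7 (0.523). Jun was nearest to Adgrl2 (0.257) and Cacna1e (0.305), and Ier2 to Igf1r (0.273) and 6720475M21Rik (0.281). Nr4a1 was nearest to Plekhf2 (0.136) and Glyctk (0.177). Neighbors of the factors that overlapped between groups were Nisch (0.179) and Nudt9 (0.200) for Junb, Eif3k (0.178) and Zfp944 (0.214) for Batf, and Gm12568 (0.206) and Gm43300 (0.231) for Egr3. Egr1 was nearest to Cbx6 (0.185) and Gcn1l1 (0.204). Within the 10, the closest pair was Jund and Egr1 (0.498) and the farthest Fosb and Nr4a1 (2.75), and Fos lay closer to Jun (0.999) than to Fosb (1.65).

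Lists of genes around AP-1, chosen for their known roles, were counted in the same fit. None of the other AP-1 leucine zipper genes was called by limma (5 of 11 tested; 2 at an unadjusted p under 0.05), with a median log2 fold change of -0.17. Atf2, a partner of Jun on TGANNTCA sites, was 30.3, 49.0 and 47.2 scaled TPM in MBCs and 84.5, 77.1, 83.1 and 66.4 in PCs, without overlap, but did not pass the test (log2 fold change 0.89, SE 0.32; limma, adjusted p = 0.126). Atf3, a stress-induced partner, was listed at 0 in every library but MBC replicate 3, where it was 0.151 scaled TPM. Batf2 was at 0 in every library. Of 12 other inducible nuclear factors, 8 were tested and none was called by limma (0 at an unadjusted p under 0.05), among them Myc, Ier5 and Klf6, each of which overlapped between the groups. The median of that list was -0.12. Without MBC replicate 3, Klf2 of that list was called lower (-1.98, adjusted p = 0.0411 in limma).

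Of 16 genes that feed back on the immediate early response or act in mRNA decay, 13 were not called, 2 were called higher and 1 lower in PCs (6.41% and 2.14% of all tested genes), with a median log2 fold change of 0.51. Sik1, a kinase induced by CREB that holds CREB coactivators out of the nucleus, was 1.04, 5.93 and 1.15 scaled TPM in the MBC libraries and 31.1, 18.4, 29.4 and 17.0 in the PC libraries. All PC libraries were high and the groups were well separated, and the log2 fold change was 2.95 (SE 0.56; limma, adjusted p = 0.0107). Btg2, an antiproliferative immediate early gene that promotes mRNA deadenylation, was 17.3, 37.5 and 18.6 in MBCs and 74.8, 87.7, 77.8 and 66.1 in PCs (1.69, SE 0.37; adjusted p = 0.0201), a call lost without MBC replicate 1 or any single PC library. Its relative Btg1 went the other way, from 166, 140 and 47.8 scaled TPM in MBCs to 27.3, 15.0, 21.1 and 17.3 in PCs (-2.34, SE 0.47; adjusted p = 0.0148), a call lost without MBC replicate 1 or PC replicate 2. Dusp4, Dusp5 and Zfp36 were higher in PCs without overlap but did not pass the test (limma, adjusted p = 0.077, 0.119 and 0.0759). Their highest MBC and lowest PC values were 7.6 and 12.98 scaled TPM for Dusp4 and 0.931 and 1.58 for Dusp5. For Zfp36 these values were 102.9 and 128.8. Dusp2 was lower in PCs without overlap and did not pass either (-0.76; limma, adjusted p = 0.33). Dusp1, the immediate early MAP kinase phosphatase, overlapped between the groups (1.41, adjusted p = 0.272), as did the remaining uncalled genes of this list.

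No upstream kinase or factor was called by limma in the 20 tested of 20 (5 at an unadjusted p under 0.05), and their median was -0.27. The list held the MAP kinases, SRF, the ELK factors and CREB1. Without MBC replicate 3, 2 of them were called lower by limma, Creb1 (-1.46, adjusted p = 0.0335) and Mrtfa (-1.65, 0.0179). Among 7 partners and competitors of AP-1, 1 was called higher and 2 lower, with a median of -1.06. Irf4, the BATF and JUN partner needed for PC differentiation and also one of the PC markers above, was 29.9, 12.0 and 11.4 scaled TPM in the MBC libraries and 222, 174, 198 and 158 in the PC libraries. Each PC library was several times the highest MBC library (3.45, SE 0.39; limma, adjusted p = 0.00054). Irf8, the alternative partner, fell from 131, 132 and 60.8 scaled TPM to 32.8, 21.6, 23.2 and 29.5 (-1.91, SE 0.38; adjusted p = 0.0145), a call lost without PC replicate 2. Bach2, which represses PC differentiation through sites related to those of AP-1, fell from 75.8, 95.4 and 85.0 to 27.6, 16.8, 19.3 and 15.7 (-2.08, SE 0.34; adjusted p = 0.0048). Without MBC replicate 3, the 6 lists around AP-1, heat shock genes included, together gave 5 genes higher and 8 lower, in place of 3 and 3. The lower calls gained were Creb1, Mrtfa, Klf2, Nfatc1 (-1.38, adjusted p = 0.0196 in limma) and Nfatc2 (-2.70, 0.0209). Those gained higher were Dnajb1 and Hsph1. Of all tested genes, 15.1% were then called higher and 8.2% lower.

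**Figure D4:**
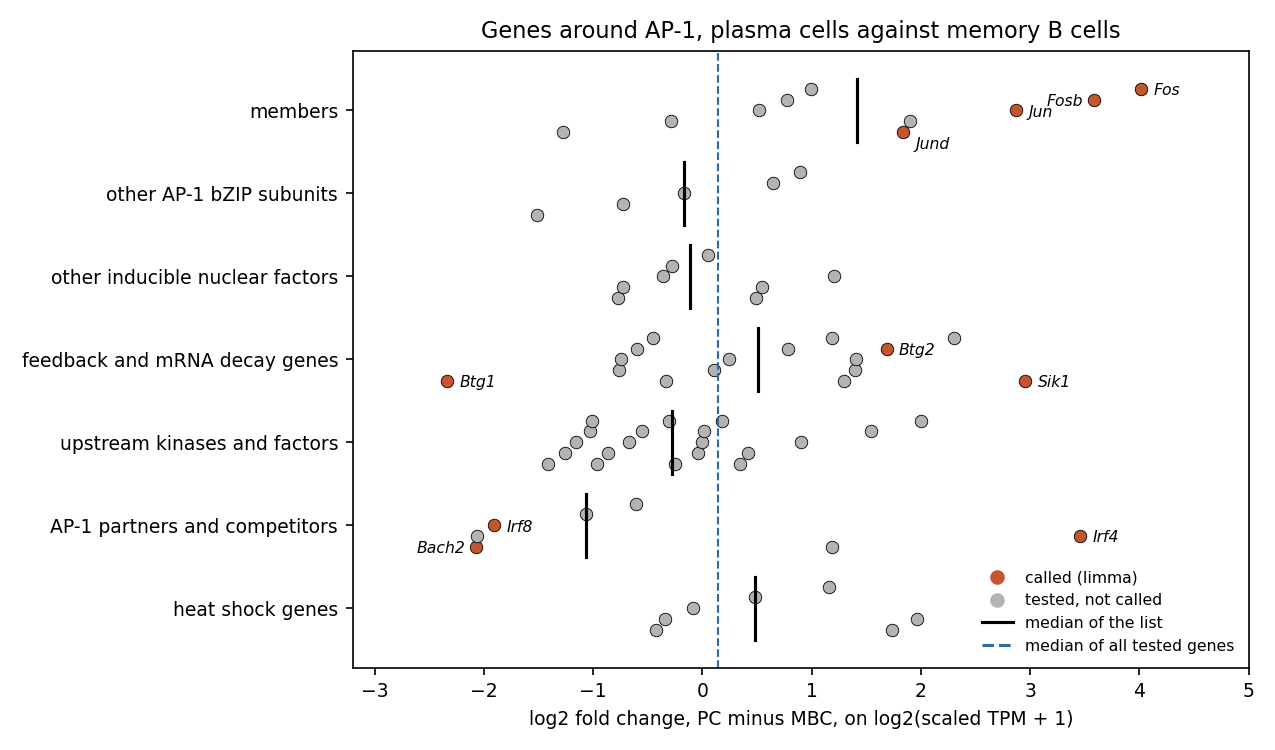
Log2 fold change, PC minus MBC, of each tested gene in the 10 factors and in 6 lists around AP-1; red points were called by limma and carry their names, black bars are list medians and the dashed line is the median of all tested genes. The 10 factors have their median at 1.41, against 0.14 for all tested genes, and Irf4 and Bach2 lie on opposite sides of 0.

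Heat shock genes, which respond to stress on a cell, were the last of these lists. Of 8 genes 7 were tested and none was called by limma (3 at an unadjusted p under 0.05), and they summed to 901 to 1517 scaled TPM in MBCs and 965 to 1271 in PCs. Of these 7, 4 had fitted values above 0 and 3 below. Hspa8, the most abundant, overlapped between the groups (-0.08, adjusted p = 0.898). Hspa1a was low, at 0, 0 and 0.375 scaled TPM in MBCs and 1.68, 2.18, 0.775 and 1.52 in PCs (1.16, adjusted p = 0.116). Hspa1b, which could not be tested, was at most 0.189 in MBCs and 0.234 to 0.699 in PCs. Dnajb1 was 1.07, 9.58 and 18.3 scaled TPM in MBCs and 41.1, 25.6, 27.0 and 22.6 in PCs (1.97, adjusted p = 0.123), and Hsph1 was 19.2, 7.18 and 55.4 in MBCs and 107, 53.2, 71.0 and 56.9 in PCs (1.74, adjusted p = 0.115). When MBC replicate 3 was left out both were called, Dnajb1 at 2.61 (limma, adjusted p = 0.0241) and Hsph1 at 2.44 (0.0097). PC replicate 1 was the highest PC library for these 2 of the 8 heat shock genes, which were picked after their values were seen, and the other 6 were highest in another PC library, with Hspa8 and Hsp90aa1 lowest in PC replicate 1. The part of stress during cell preparation in the levels of these factors was not tested.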

How the data were processed

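The 7 libraries, 3 MBC and 4 PC, were grouped by the descriptions in the labels. Values are TPM per gene as the authors deposited them, with 2 decimals. Per the labels, the submitters' processing notes name STAR 2.5.2a, RSEM 1.3.0, DESeq2 1.18.1 and GRCm38, and the annotation release is not given in the sources used here. GENCODE mouse release M21 gave symbols for 48349 of 48795 IDs and the coordinates.

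Scaled TPM is TPM over a library factor, the median ratio to a geometric mean profile across the 9305 genes detected in every library. Genes at 1 TPM in at least 3 libraries were fitted with limma 3.58.1 (R 4.3.3; lmFit, then trended eBayes, two-sided, no covariate) to log2(scaled TPM + 1), a procedure tested on simulated data. Fold changes are PC minus MBC on that scale and understate the change of low genes. Depth was estimated from the spacing of low TPM values of genes with a single transcript, after the data were seen: 74.8% to 82.6% of them lay near a whole number of reads, against 30% by coincidence. Floors of 3 reads cover counting error only. Promoter windows came from RefSeq on GRCm38.p6.

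The 10 factors, the lists around them and the tests were chosen with earlier results of these data known. Named outside the 10 were the called genes of each list (at most 4 with the largest change), Irf4, Bach2, Fosl2, Atf3 and Egr2, and the 2 genes nearest in profile to each factor. Other genes named (Fosl1, Batf2, Atf2, Myc, Ier5, Klf2, Klf6, Zfp36, Dusp1, Dusp2, Dusp4, Dusp5, Creb1, Mrtfa, Nfatc1, Nfatc2, Hspa1a, Hspa1b, Hspa8, Hsp90aa1, Dnajb1, Hsph1, overlapping genes and markers) were chosen after their values were seen.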

Additional observations from a re-analysis of the deposited data

Results flagged for a closer look

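In the 4 PC libraries, PC replicate 1 lay far from the others for Fos (172 scaled TPM, with the next at 93.2) and for Fosb (121, with the next at 35.4), by the gap between the highest value and its neighbor relative to the whole range (Dixon's criterion at 95%). Of 22 values examined in the PC group 2 were singled out, where 1.1 would be by chance at 1 in 20. Without PC replicate 1 the log2 fold change of Fos was 3.81 (limma, adjusted p = 0.0106) and that of Fosb was 3.11 (adjusted p = 0.0859).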

How the results depend on the processing

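The 742 genes higher and 248 lower in PCs (74.95% of calls higher) became 472 and 3018 with TPM as deposited (13.5% higher), where the median over tested genes moved from 0.14 to -0.91. With immunoglobulin, mitochondrial and ribosomal RNA genes removed 433 were higher (59.97% of calls), with quantile normalization 460 were lower (59.5% of calls higher), with all genes above 0 TPM kept 437 were higher and 123 lower, and with only the libraries of the more frequent title prefix 448 were lower. Leaving out 1 library gave 456 to 1624 higher and 93 to 881 lower, both highest without MBC replicate 3. Of the 10 factors, 4 were called higher; 1 was with TPM as deposited (with 1 lower, Nr4a1), 2 with a pseudocount of 0.1, 2 with all genes above 0 kept, and 1 to 4 without 1 library. In the 6 lists around AP-1, 26 genes were lower with TPM as deposited and 5 with quantile normalization, in place of 3, and without 1 library 2 to 5 were higher and 1 to 8 lower. The replicate numbers and title codes shared by the groups were not shown to pair the libraries: deviations of same-coded libraries from their group means correlated at 0.109, -0.0044 and 0.222 and those of same-numbered libraries at 0.109, -0.0398 and -0.0832, and 2 of 3 same-coded pairs were best matches of each other. With the replicate block by title code 434 genes were higher and 83 lower, and Jund was not called (1.82, adjusted p = 0.136); by number 390 and 60, with 2 of the 10 factors higher (not Jun, 3.01, 0.0579, or Jund, 1.86, 0.17) and, in the lists, 1 higher and 0 lower (limma). Signs turned for Junb (-0.44), Egr1 (-0.29) and Egr3 (-0.24) with TPM as deposited, for Egr3 with quantile normalization (-0.0093), and for Batf without MBC replicate 1 (0.05), MBC replicate 3 (0.10) or PC replicate 1 (0.06); without 1 library Batf ran from -1.06 to 0.10. Apart from fewer samples or more genes in a fit, the cause of these changes was not tested. Family shares moved by less than their SD in each alternative run. Depth limits Egr3, Fosb in MBC replicate 2 and Nr4a1 in PCs, which rest on few reads.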
